A study of Mus musculus with 9 samples.

Results

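The anaphase promoting complex and the spindle checkpoint that restrains it were followed through 9 of their regulators in mouse liver. The genes were *Cdc20*, *Fzr1*, *Ube2c*, *Pttg1*, *Espl1*, *Fbxo5*, *Mad2l1*, *Mad1l1* and *Bub3*. They were taken by symbol from the 43346 genes of the deposited table, and each of the 9 had 1 row. All 9 passed the filter on low counts, as did 15024 genes in all. *Cdc20*, *Ube2c* and *Espl1*, with 4 to 19 counts in the baseline livers, passed it through the livers taken after hepatectomy. RNA-Seq was performed on whole liver of C57/BL6 mice (C57BL/6J in the study's methods) aged 12 weeks, male by those methods, with no engineered allele named in the labels. Every mouse underwent 70% partial hepatectomy, and dosing began 12 h before surgery by the labels (1 day before by the methods) and continued until euthanasia. NSC-87877 (NSC), an inhibitor of the tyrosine phosphatase SHP2 that also inhibits SHP1, was injected i.p., 7.5 mg/kg in each dose and 15 mg/kg in a day, and vehicle was normal saline. Baseline (0 h) was the tissue resected from vehicle-treated mice, and the remnant was taken 40 h after hepatectomy from mice on vehicle or on NSC, with 3 livers in each group. Baseline and remnant come from different lobes, so lobe and time cannot be told apart, and no baseline liver of NSC-treated mice was analysed here.

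The anaphase promoting complex (APC/C) is a ubiquitin ligase that marks mitotic proteins for destruction. It is switched on by the coactivators CDC20, which acts at the metaphase to anaphase transition, and CDH1, encoded by *Fzr1*, which acts from late mitosis through G1. While chromosomes remain unattached to the spindle, the checkpoint proteins MAD1, MAD2 and BUB3 help to hold CDC20 in an inhibitory complex. Once the checkpoint is satisfied, securin (*Pttg1*) is degraded and separase (*Espl1*) cleaves the cohesin that holds sister chromatids together. Hepatocytes of adult liver are mostly quiescent and enter the cell cycle after partial hepatectomy.

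Promoters of many genes expressed in G2 and mitosis carry a CHR element (TTTGAA), bound by the MuvB complexes, with CCAAT boxes, bound by NF-Y. RefSeq windows (GRCm38.p6) of 250 bases before to 50 after each start were found for all 9 genes and searched on both strands. TTTGAA was present for 5 of 9 genes (17.9% of 32851 windows of all genes) and CCAAT for 6 of 9 (37.4%). Both were present for *Cdc20*, *Ube2c*, *Espl1*, *Fbxo5* and *Bub3*, which is 5 of 9 genes against 6.95% of all windows. The units differ: a gene counted with a match in any of its windows (2 for *Bub3* and *Mad1l1*), whereas the percentages count single windows. None of the 9 held an E2F site in the forms TTTCCCGC, TTTCGCGC, TTTGCCGC or TTTGGCGC (2.26% of all windows). *Fzr1* held a CCAAT box alone, and the windows of *Pttg1*, *Mad2l1* and *Mad1l1* held neither element. RefSeq starts differ from the deposited gene starts for some of the genes. For *Pttg1* the 250 bases searched before the RefSeq start (chr11:43425982-43426231) lie inside the deposited span, so bases before the deposited start were not searched. For *Mad2l1* the RefSeq start lies before the deposited start (chr6:66535390). The stretches around the matches are printed for 3 genes that rose steeply from near 0 and for *Bub3*, which had smaller differences, with *Mad2l1* as a gene that rose without a match in its window. Capitals mark TTTGAA and CCAAT on the printed strand and TTCAAA and ATTGG where the match is on the other strand. The CCAATTGG of *Ube2c* is an overlapping pair of CCAAT matches, 1 on each strand. The stretches run 5′ to 3′ at chr4:118437344-118437406 (minus strand) for *Cdc20*, chr2:164769691-164769908 (plus) for *Ube2c*, chr15:102296239-102296274 (plus) for *Espl1*, chr7:131560286-131560345 (plus) for *Bub3* and chr6:66535158-66535220 (plus) for *Mad2l1*.
Cdc20: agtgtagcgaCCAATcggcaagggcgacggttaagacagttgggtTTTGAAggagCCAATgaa
Ube2c: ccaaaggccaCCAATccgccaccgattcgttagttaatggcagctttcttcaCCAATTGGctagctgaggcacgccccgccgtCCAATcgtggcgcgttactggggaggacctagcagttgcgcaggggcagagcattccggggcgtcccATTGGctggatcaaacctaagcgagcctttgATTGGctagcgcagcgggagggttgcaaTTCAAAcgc
Espl1: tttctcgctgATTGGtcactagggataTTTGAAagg
Bub3: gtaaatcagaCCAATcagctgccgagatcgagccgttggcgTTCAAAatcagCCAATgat
Mad2l1: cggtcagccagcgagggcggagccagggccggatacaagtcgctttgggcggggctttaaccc

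**Figure D1:**
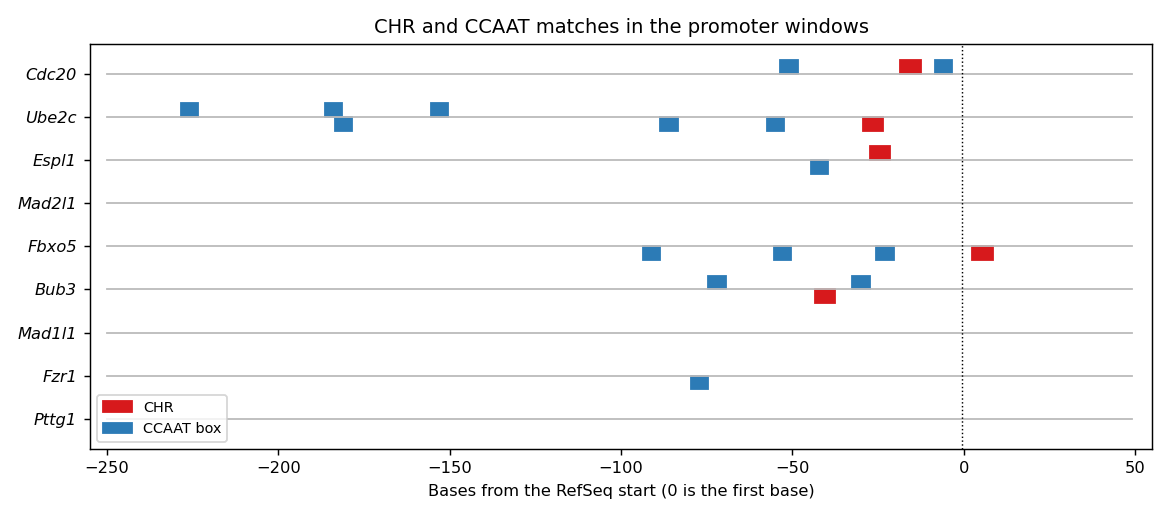
Matches to TTTGAA (CHR, red) and CCAAT (blue) in the RefSeq promoter windows of the 9 genes, by bases from the annotated start, with plus-strand matches above each line and minus-strand matches below (for *Bub3*, the first of its 2 windows). TTTGAA lies within 43 bases upstream of the start in *Cdc20*, *Ube2c*, *Espl1* and *Bub3* and at positions 3 to 8 in *Fbxo5*, counting the first base as 0.

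Total counts ran from 31187349 to 33943842 per liver at baseline, from 27956396 to 42887589 in vehicle-treated and from 23997363 to 30201051 in NSC-treated mice, and 3 counts in a library equal 0.0751 to 0.117 CPM, the counts scaled to the effective library size. Hepatocyte markers were present in every liver (7 of 8 listed genes found, 95600 to 132000 CPM in sum), and 2 of 7 were lower than baseline in vehicle-treated and 3 of 7 in NSC-treated mice. From baseline to 40 h (both groups), summed cholangiocyte markers went from 38.1 to 41.1 CPM to 76 to 122 CPM. Neutrophil markers went from 1.86 to 6.67 CPM to 8.08 to 18.5 CPM. Lymphocyte markers went from 2.35 to 8.08 CPM to 0.664 to 2.4 CPM. Erythroid markers went from 225 to 327 CPM to 105 to 231 CPM. *Spp1* made up most of the cholangiocyte sum, with means of 33.2 CPM at baseline, 73.2 under vehicle and 84.3 under NSC. Means of *Krt19*, *Krt7* and *Sox9* also rose, and those of *Epcam* and *Cldn7* fell. The erythroid fall was mostly *Alas2* (means 152, 42.7 and 50.1 CPM in the same order). *Hba-a1*, *Hba-a2*, *Hbb-bs* and *Hbb-bt* overlapped baseline in both groups. NSC replicate 1 stood apart: it was the lowest of the 6 livers at 40 h for 8 of the 9 genes (88.9%), against 24.7% of all genes tested. Its summed Kupffer cell and macrophage markers were 457 CPM (286 and 299 in the other NSC-treated livers, 143 to 262 in vehicle), its endothelial markers 290 CPM (170 and 187) and its stellate cell markers 409 CPM (256 and 281). The part of any of these cells in the results was not tested. No label sets this liver aside, so results that rest on it are given with and without it. In whole tissue, a change in the number of cells of a type and a change in RNA per cell cannot be told apart.

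At 40 h after hepatectomy in vehicle-treated mice, *Cdc20*, *Ube2c*, *Espl1*, *Mad2l1* and *Fbxo5* rose from baseline, and *Pttg1* fell. The increases ran from 5.63-fold for *Fbxo5* to 138-fold for *Ube2c*. *Fzr1*, *Mad1l1* and *Bub3* did not pass the test. Thus 5 of 9 genes were called higher, against 12.7% of all genes tested, and 1 of 9 lower, against 11%. Calls are at a Benjamini-Hochberg adjusted p under 0.05 in edgeR's quasi-likelihood test. The median log2 fold change of the 9 genes was 2.49, beside 0.01 over all genes. By size of increase *Ube2c* ranked 28th and *Cdc20* 32nd of 15024 genes, with *Espl1* 80th, *Mad2l1* 205th and *Fbxo5* 432nd. *Cdc20*, *Ube2c* and *Espl1* passed the filter through the livers at 40 h and had to differ. Their calls and ranks, and the count of 5 of 9 that includes them, are therefore descriptions. *Fbxo5* had 13 to 23 counts and *Mad2l1* 42 to 56 in the baseline livers.

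**Figure D2:**
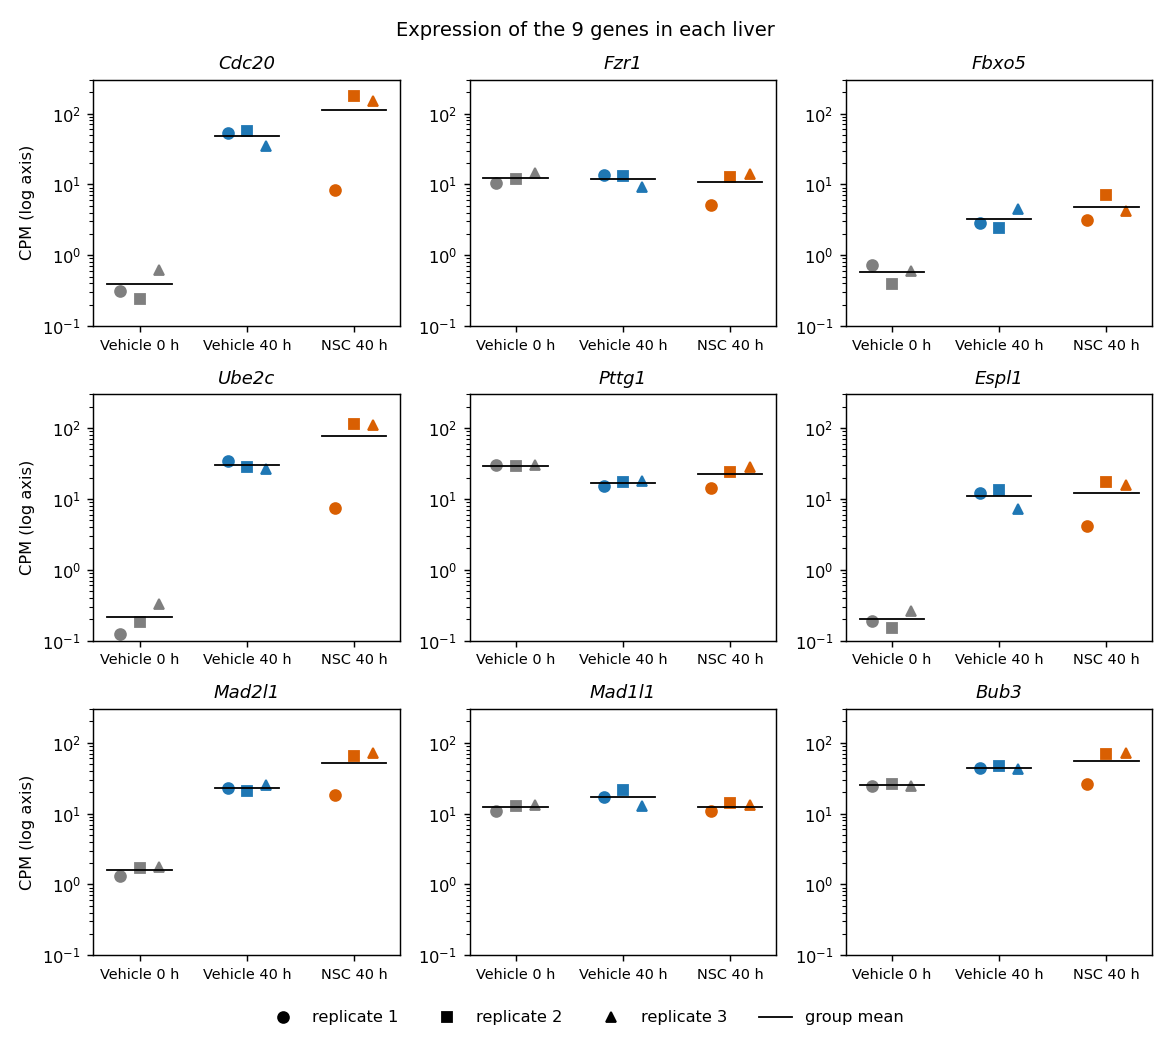
CPM of each of the 9 genes in each liver (log axis), by group, with symbols for replicates 1 to 3 and a line at the group mean. *Cdc20*, *Ube2c* and *Espl1* lie below 1 CPM in the baseline livers and above 4 CPM in every liver at 40 h, and NSC replicate 1 (lower circle) lies below the other NSC-treated livers for all 9 genes.

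*Cdc20* (ENSMUSG00000006398, chr4:118432901-118437352) encodes the mitotic coactivator. Its baseline livers held 0.316, 0.244 and 0.627 CPM (replicates 1 to 3), from 10, 8 and 19 counts. Vehicle-treated livers at 40 h held 52.9, 57.5 and 35.1 CPM, and NSC-treated livers held 8.31, 174 and 152 CPM. Every liver at 40 h was above every baseline liver, and the NSC-treated group had 1 liver below the vehicle range and 2 above it. The log2 fold change from baseline was 6.94 (SE 1.28, edgeR adjusted p = 0.00953) in vehicle-treated mice, a 123-fold increase. In NSC-treated mice it was 8.14 (SE 1.33, edgeR adjusted p = 0.00398). The 3′ end of *Cdc20* overlaps *Elovl1*, and the strand setting of the counting is not given in the sources used here.

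*Fzr1* (ENSMUSG00000020235, chr10:81366222-81378516), which encodes the coactivator of late mitosis and G1, did not pass the test in either comparison with baseline. It was at 10.4, 11.9 and 14.5 CPM at baseline, 13.7, 13.0 and 9.26 CPM in vehicle-treated and 5.16, 12.9 and 14.2 CPM in NSC-treated mice. The 3 groups overlapped, with NSC replicate 1 the lowest liver. The log2 fold change was -0.03 (95% interval -0.74 to 0.68, edgeR adjusted p = 0.959) in vehicle-treated mice and -0.19 (95% interval -0.90 to 0.52, edgeR adjusted p = 0.678) in NSC-treated mice, and its sign turned under several alternatives.

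*Fbxo5* (ENSMUSG00000019773, chr10:5799160-5805600) encodes EMI1, an inhibitor of the APC/C in S and G2 phase. It was at 0.727, 0.397 and 0.594 CPM at baseline, 2.88, 2.41 and 4.47 CPM in vehicle-treated and 3.09, 7.13 and 4.15 CPM in NSC-treated mice. All 6 livers at 40 h were above all baseline livers, and the 40 h groups overlapped. It rose by 2.49 (SE 0.40, edgeR adjusted p = 0.0012) on the log2 scale in vehicle-treated mice and by 3.06 (SE 0.40, edgeR adjusted p = 0.000267) in NSC-treated mice.

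*Ube2c* (ENSMUSG00000001403, chr2:164769898-164778822) encodes the ubiquitin-conjugating enzyme that starts ubiquitin chains for the APC/C. Baseline livers held 0.126, 0.183 and 0.330 CPM, from 4, 6 and 10 counts. Vehicle-treated livers held 34.1, 28.3 and 26.7 CPM and NSC-treated livers 7.44, 113 and 110 CPM. As with *Cdc20*, NSC replicate 1 was the lowest liver at 40 h and the other NSC-treated livers were the highest. The log2 fold change was 7.11 (SE 1.22, edgeR adjusted p = 0.00654) in vehicle-treated mice and 8.48 (SE 1.25, edgeR adjusted p = 0.00245) in NSC-treated mice. Its annotated span overlaps *Tnnc2*, which had at most 1 count in any liver.

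Securin and separase moved in opposite directions in vehicle-treated mice. *Pttg1* (ENSMUSG00000020415, chr11:43420250-43426251), encoding securin, was at 29.8, 29.1 and 29.9 CPM at baseline, 15.2, 17.1 and 18 CPM in vehicle-treated and 14.4, 24.4 and 28.6 CPM in NSC-treated mice. The baseline livers agreed closely (coefficient of variation 1.42%), and all 6 livers at 40 h lay below them. The log2 fold change was -0.82 (SE 0.21, edgeR adjusted p = 0.015) in vehicle-treated mice, and without vehicle replicate 1 the call was lost (-0.75, edgeR adjusted p = 0.0629). In NSC-treated mice it was -0.40 (SE 0.21, edgeR adjusted p = 0.16) and did not pass, although without NSC replicate 3 it did (-0.61, edgeR adjusted p = 0.0432). *Espl1* (ENSMUSG00000058290, chr15:102296293-102324356), encoding separase, was at 0.190, 0.153 and 0.264 CPM at baseline, from 6, 5 and 8 counts. It reached 12.0, 13.4 and 7.23 CPM in vehicle-treated and 4.17, 17.2 and 15.5 CPM in NSC-treated mice. Again all livers at 40 h exceeded baseline, and NSC replicate 1 was the lowest of them. *Espl1* rose by 5.74 (SE 0.63, edgeR adjusted p = 0.000388) on the log2 scale in vehicle-treated mice and by 5.91 (SE 0.63, edgeR adjusted p = 0.000228) in NSC-treated mice.

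Among the 3 checkpoint genes of the 9, *Mad2l1* had the largest fold change. *Mad2l1* (ENSMUSG00000029910, chr6:66535390-66541033) encodes MAD2, the checkpoint protein that binds CDC20. It was at 1.33, 1.71 and 1.78 CPM at baseline, 23.2, 20.8 and 24.9 CPM in vehicle-treated and 18.1, 65.0 and 71.1 CPM in NSC-treated mice. The groups at 40 h lay above baseline, and 2 NSC-treated livers exceeded the vehicle range while replicate 1 lay below it. It rose by 3.84 (SE 0.49, edgeR adjusted p = 0.00114) on the log2 scale in vehicle-treated and by 5.0 (SE 0.51, edgeR adjusted p = 0.000283) in NSC-treated mice.

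*Mad1l1* (ENSMUSG00000029554, chr5:140008689-140321552) encodes MAD1, which recruits MAD2 to unattached kinetochores. Its levels were 10.9, 12.8 and 13.0 CPM at baseline, 16.9, 21.4 and 12.7 CPM in vehicle-treated and 10.7, 13.9 and 13.0 CPM in NSC-treated mice, and the 3 groups overlapped. The log2 fold change was 0.48 (SE 0.20, edgeR adjusted p = 0.096) in vehicle-treated mice. It passed without vehicle replicate 3 (0.65, edgeR adjusted p = 0.0347) and with GC content corrected (0.56, edgeR adjusted p = 0.0234). In NSC-treated mice the log2 fold change was 0.04 (95% interval -0.39 to 0.47, edgeR adjusted p = 0.899), and its sign turned without baseline replicate 1 or NSC replicate 2.

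*Bub3* (ENSMUSG00000066979, chr7:131560391-131571898) encodes a kinetochore protein of the checkpoint that also serves outside it. It was at 24.6, 26.1 and 24.7 CPM at baseline, 44.3, 46.2 and 42.4 CPM in vehicle-treated and 25.9, 69.9 and 71.9 CPM in NSC-treated mice. Vehicle-treated livers lay above baseline without overlap, whereas NSC replicate 1 lay within the baseline range. The log2 fold change of 0.82 (SE 0.31, edgeR adjusted p = 0.0795) in vehicle-treated mice did not pass with all 9 livers in 1 fit. It passed when only baseline and vehicle were fitted (edgeR adjusted p = 0.000537), without NSC replicate 1 (edgeR adjusted p = 0.000244) and in DESeq2 (adjusted p = 0.0381). In NSC-treated mice *Bub3* rose by 1.15 on the log2 scale (SE 0.31, edgeR adjusted p = 0.0162), a call lost when baseline replicate 1, baseline replicate 3, NSC replicate 2 or NSC replicate 3 was left out (edgeR adjusted p = 0.0529 to 0.0574). The deposited span of *Fgfr2* covers *Bub3*.

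In NSC-treated mice at 40 h, 6 of 9 genes were therefore called higher than baseline, against 18.2% of all genes, and 0 of 9 lower, against 16.5%. With library size as the only scaling, 3399 genes were higher and 1795 lower, in place of 2728 and 2479. The 6 were the 5 of the vehicle-treated mice and *Bub3*, and the median of the 9 log2 fold changes was 3.06, beside 0.01 over all genes. Without NSC replicate 1, 6 of 9 were again called higher (17.8% of all genes), and the median was 3.30. All 3 livers lay above all baseline livers for 6 of 9 genes in vehicle-treated mice (24.2% of all genes) and 5 of 9 in NSC-treated mice (24%), and below them for *Pttg1* alone in both (22% and 23.1% of all genes). Both comparisons share the 3 baseline livers. *Cdc20*, *Ube2c* and *Espl1*, which passed the filter through the livers at 40 h, are among the genes counted as higher in each, so these counts are descriptions too.

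The direct comparison asked whether these genes differed between NSC-treated and vehicle-treated mice at 40 h. With all livers, 0 of 9 genes differed between NSC-treated and vehicle-treated mice in edgeR's test, against 0.0399% of all genes, and the groups overlapped for all 9 (10.3% of all genes lay above without overlap and 12.2% below). Unadjusted p was under 0.05 for *Mad2l1* (0.0236) and *Mad1l1* (0.044), 2 of 9 genes against 19.5% of all genes. DESeq2 called 1 of 9, *Mad2l1* (adjusted p = 0.0399), against 5.58% of all genes it tested. The intervals were wide: the log2 difference was 1.20 (95% interval -0.95 to 3.35) for *Cdc20*, 1.37 (-0.55 to 3.29) for *Ube2c* and 1.16 (0.20 to 2.12) for *Mad2l1*. For *Pttg1* it was 0.42 (-0.04 to 0.88), for *Fbxo5* 0.56 (-0.20 to 1.33) and for *Bub3* 0.33 (-0.34 to 1.01). For *Espl1* it was 0.17 (-0.84 to 1.18), for *Fzr1* -0.16 (-0.87 to 0.55) and for *Mad1l1* -0.44 (-0.87 to -0.01).

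NSC replicate 1 decided these calls. Without it, 5 of 9 genes were higher in NSC-treated mice, against 3.73% of all genes. The log2 differences were 1.75 for *Cdc20* (edgeR adjusted p = 0.00179), 1.91 for *Ube2c* (edgeR adjusted p = 8.2e-05), 1.56 for *Mad2l1* (edgeR adjusted p = 0.000143), 0.66 for *Pttg1* (edgeR adjusted p = 0.0207) and 0.67 for *Bub3* (edgeR adjusted p = 0.011). *Espl1* (0.58) and *Fbxo5* (0.80) did not pass (edgeR adjusted p = 0.158 for each), nor did *Fzr1* (0.17) or *Mad1l1* (-0.34). The liver was left out after its levels had been seen, so these values describe its weight and do not replace the comparison of all livers.

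**Figure D3:**
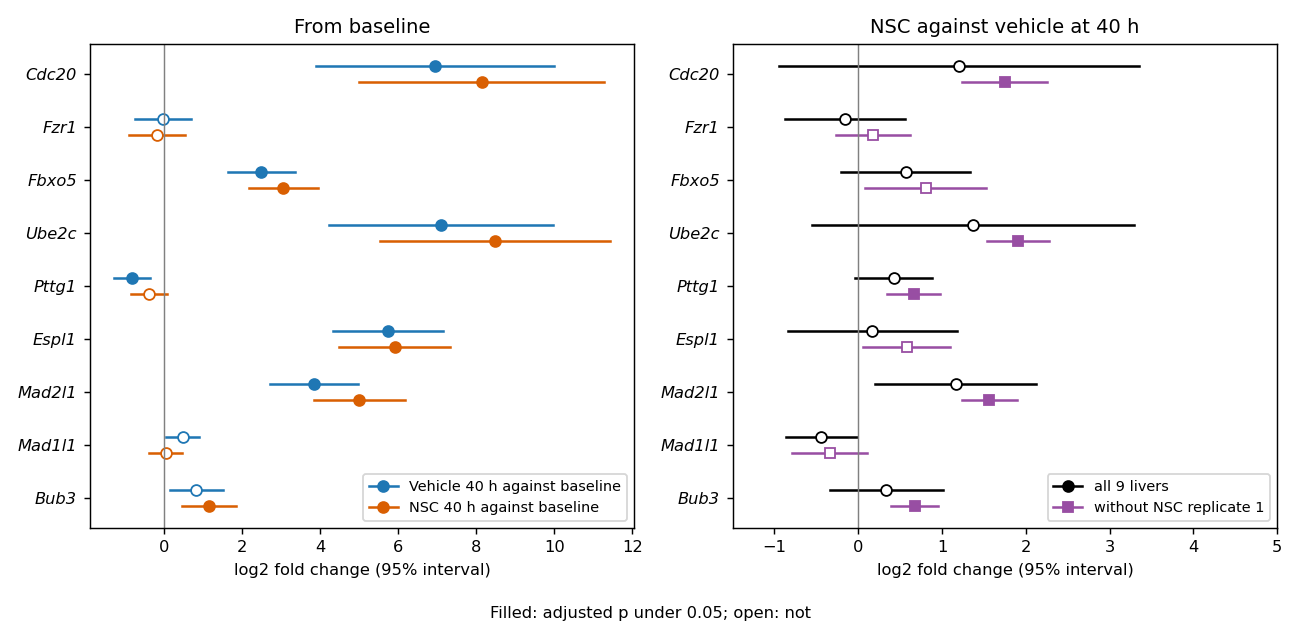
Log2 fold changes of the 9 genes with 95% intervals from edgeR, from baseline at left (vehicle blue, NSC orange) and for NSC against vehicle at 40 h at right (all 9 livers in black, without NSC replicate 1 in purple). Filled symbols have an adjusted p under 0.05: none of the 9 with all livers at right, and 5 of 9 without NSC replicate 1.

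Levels per length (FPKM) placed the genes in a different order before and after hepatectomy. At baseline *Pttg1* was at 14.3 ± 0.236 FPKM (SD, n = 3) and *Bub3* at 11.8 ± 0.406 FPKM, well above *Mad1l1* (3.48 ± 0.342 FPKM) and *Fzr1* (2.64 ± 0.460 FPKM), whose ranges overlapped. *Mad2l1* followed at 0.704 ± 0.111 FPKM, then *Fbxo5* (0.276 ± 0.0792 FPKM) and *Cdc20* (0.205 ± 0.106 FPKM), which overlapped, *Ube2c* (0.0793 ± 0.0396 FPKM) and *Espl1* (0.0294 ± 0.00842 FPKM). Baseline liver thus held the securin transcript at the highest level of the 9 and the separase transcript at the lowest. In vehicle-treated mice at 40 h *Cdc20* led with 25.3 ± 6.21 FPKM, overlapping *Bub3* at 21.0 ± 1.53 FPKM. *Ube2c* (11.2 ± 2.28 FPKM), *Mad2l1* (10.2 ± 1.46 FPKM) and *Pttg1* (8.14 ± 0.529 FPKM) came next, with each overlapping its neighbour in this order. *Mad1l1* (4.85 ± 1.09 FPKM) overlapped neither of its neighbours. *Fzr1* (2.6 ± 0.606 FPKM) lay above *Espl1* (1.60 ± 0.470 FPKM) without overlap but overlapped *Fbxo5* (1.59 ± 0.542 FPKM), as did *Espl1*. In NSC-treated mice the means ran from 62.4 ± 50.0 FPKM for *Cdc20*, through *Ube2c* (30.9 ± 24 FPKM), *Bub3* (28.6 ± 12.8 FPKM), *Mad2l1* (24.5 ± 13.5 FPKM) and *Pttg1* (11.9 ± 3.69 FPKM), down to *Mad1l1* (3.92 ± 0.374 FPKM), *Fzr1* (2.53 ± 1.11 FPKM), *Fbxo5* (2.52 ± 1.01 FPKM) and *Espl1* (1.95 ± 1.09 FPKM). All neighbours in that order overlapped except *Pttg1* with *Mad1l1* and *Mad1l1* with *Fzr1*.

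Ratios within a liver do not depend on library scaling and were taken on FPKM for 4 pairs of partners. The ratio of the coactivators, *Cdc20* to *Fzr1*, was 0.0732, 0.0491 and 0.104 at baseline, 9.30, 10.6 and 9.10 in vehicle-treated and 3.87, 32.6 and 25.7 in NSC-treated mice. *Fzr1* was therefore the more abundant coactivator transcript in every baseline liver and *Cdc20* in every liver at 40 h, with geometric means 134-fold (vehicle) and 205-fold (NSC) above baseline. Without NSC replicate 1 the latter was 401-fold, and leaving out each liver in turn put its log2 value between 7.11 and 8.65. The ratio of inhibitor to coactivator, *Fbxo5* to *Fzr1*, was 0.157, 0.0745 and 0.0921 at baseline, 0.472, 0.416 and 1.08 in vehicle-treated and 1.34, 1.24 and 0.652 in NSC-treated mice, and it was also above baseline in all 6 livers. The ratio of checkpoint protein to target, *Mad2l1* to *Cdc20*, went the other way, from 3.56, 5.94 and 2.41 at baseline to 0.372, 0.307 and 0.601 in vehicle-treated and 1.85, 0.316 and 0.396 in NSC-treated mice. Both genes rose, but *Cdc20* rose more, and the geometric mean ratio was 9.05-fold (vehicle) and 6.03-fold (NSC) lower than at baseline, the latter 10.5-fold lower without NSC replicate 1. Leaving out each liver in turn put the log2 difference under NSC between -3.39 and -2.11. Securin to separase (*Pttg1* to *Espl1*) was 521, 632 and 375 at baseline, 4.19, 4.21 and 8.25 in vehicle-treated and 11.4, 4.70 and 6.11 in NSC-treated mice. That ratio was 94.6-fold and 72.1-fold lower, with no overlap. Each of the 8 comparisons with baseline gave p = 0.1 in the exact two-sided permutation test, the smallest that 3 against 3 livers allow (0.15 adjusted over all 12 comparisons). *Cdc20* and *Espl1* passed the filter through the livers at 40 h. The folds and p-values of the ratios that hold either gene are therefore descriptions. NSC-treated and vehicle-treated livers overlapped for all 4 ratios (exact permutation p = 0.2 to 0.6).

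**Figure D4:**
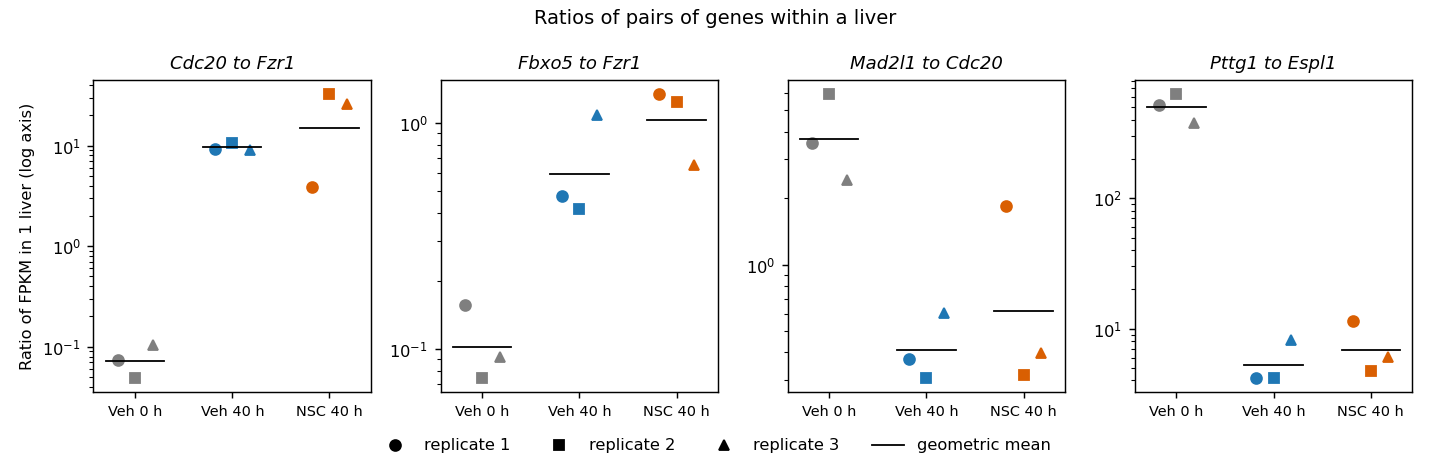
Ratio of FPKM between partner genes within each liver (log axis, with its own range in each panel), by group, with symbols for replicates 1 to 3 and a line at the geometric mean. *Cdc20* to *Fzr1* and *Fbxo5* to *Fzr1* lie above baseline in all 6 livers at 40 h, and *Mad2l1* to *Cdc20* and *Pttg1* to *Espl1* lie below it. Ratios with *Cdc20* or *Espl1*, which passed the filter through the livers at 40 h, are descriptions.

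The shape of each profile was compared with all other tested genes by the root mean square difference of centred log2 CPM over the 9 livers, where a smaller value is a closer match. *Cdc20* and *Ube2c* lay close to each other (0.283), and both had *Ckap2* (0.382 and 0.31) and *Ccnb1* (0.49 and 0.274) among their 3 closest genes. *Espl1* was nearest to *Ticrr* (0.267), *Kif22* (0.285) and *Melk* (0.307), *Mad2l1* to *Ect2* (0.231), *Kif18a* (0.274) and *Ska2* (0.28), and *Fbxo5* to *Xrcc2* (0.278), *Gins3* (0.296) and *3110035E14Rik* (0.304). The genes with flatter profiles had nearer neighbours, since flat profiles differ by less. These were *Ilf2* (0.14) for *Bub3*, *Mrps35* (0.113) for *Pttg1*, *Dgkz* (0.0943) for *Mad1l1* and *Jmjd7* (0.129) for *Fzr1*. The values are descriptions over livers that share their groups.

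The other genes of the pathway were read from 5 lists. The APC/C core subunits, the body of the ligase, differed by small amounts, with median log2 fold changes of 0.27 (vehicle) and 0.29 (NSC). In vehicle-treated mice 2 of 14 were higher, against 12.7% of all genes, and none lower, against 11%. In NSC-treated mice 6 were higher, against 18.2% of all genes, and 1 lower, against 16.5%. *Cdc27* had the largest increase in vehicle-treated mice (log2 fold change 0.68, edgeR adjusted p = 0.016) and reached 1.28 in NSC-treated mice (edgeR adjusted p = 0.000366). *Cdc23*, the next, was at 0.56 and did not pass in vehicle-treated mice (edgeR adjusted p = 0.0888), and *Anapc2* (-0.26) and *Anapc13* (-0.11) were the lowest. *Anapc2* fell in NSC-treated mice (-0.64, edgeR adjusted p = 0.00648). Of 11 tested genes among other APC/C enzymes and regulators (*Fbxo43* did not pass the filter), 3 were higher and 2 lower in vehicle-treated mice, and 4 and 2 in NSC-treated mice. The shares of all genes to set beside these counts are the same as for the core subunits. *Nek2*, a centrosomal kinase degraded through the APC/C (3.00), and *Ube2s*, which extends the ubiquitin chains begun by *Ube2c* (1.76), rose in vehicle-treated mice. The phosphatase gene *Cdc14b* (-0.92) and *Btrc* (-0.55), part of the ligase that targets EMI1, fell. Medians were 0.22 and 0.43.

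Most other spindle checkpoint genes rose, as *Mad2l1* did: 9 of 12 were higher under vehicle and 10 of 12 under NSC, none lower, with medians of 5.02 and 5.79. *Knl1* (listed as *Casc5*, 7.34), a kinetochore scaffold, and *Aurkb* (7.15), the kinase of the chromosomal passenger complex, rose most in vehicle-treated mice. *Mad2l1bp* (0.18), whose product helps to silence MAD2, and *Tpr* (0.33), a nuclear pore protein that binds MAD1, had the smallest values and did not pass there. Cohesin and its protectors divided: 5 of 14 were higher under vehicle and 9 of 14 under NSC, none lower, with medians of 0.33 and 0.58. The centromeric protectors *Sgo2a* (listed as *Sgol2*, 6.61) and *Sgo1* (listed as *Sgol1*, 6.58) led in vehicle-treated mice, whereas *Stag2* (-0.29), a cohesin subunit, and *Nipbl* (-0.07), the cohesin loader, were the lowest and did not pass there. Of 18 APC/C substrates, 16 were higher under vehicle and 17 under NSC, none lower, with medians of 5.19 and 6.17. *Hmmr* (7.70) and *Dlgap5* (7.67), both spindle proteins, rose most in vehicle-treated mice, and *Tk1* (-0.34) and *Gmnn* (0.64) had the smallest values and did not pass there. In NSC-treated mice *Gmnn* passed (1.10, edgeR adjusted p = 0.00457) and *Tk1* did not (0.05, edgeR adjusted p = 0.946). The background shares are those given above for each comparison with baseline. Fewer than 10 counts were found in every baseline liver for 5 of 12 checkpoint genes, 2 of 14 cohesin genes and 4 of 18 substrates, among them *Knl1* (5, 0 and 0 counts), *Sgo2a* (0, 4 and 3) and *Dlgap5* (2, 3 and 2). These genes passed the filter through the livers at 40 h and had to differ, so their folds rest on few counts and the counts and medians of these lists are descriptions. Of the remaining tested genes, 4 of 7 checkpoint genes, 3 of 12 cohesin genes and 12 of 14 substrates were higher under vehicle, and 5, 7 and 13 under NSC. Some of these were also low at baseline and passed the filter through the livers at 40 h. Examples are *Kntc1* (0.0916 to 0.33 CPM at baseline), *Tpx2* (0.244 to 0.316) and *Cdca5* (0.198 to 0.519), so these counts are descriptions as well.

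In the direct comparison none of the 69 tested genes in the 5 lists was called by edgeR's test with all livers, and 13 of the 69 had an unadjusted p under 0.05, beside 19.5% of all genes. Without NSC replicate 1, 7 of 12 checkpoint genes, 11 of 18 substrates, 5 of 14 cohesin genes, 1 of 14 core subunits and 1 of 11 other enzymes were higher in NSC-treated mice, against 3.73% of all genes, and none was lower. Here too the liver was left out after its levels had been seen, so these counts describe its weight and do not replace the comparison of all livers. NSC replicate 1 was the lowest of the 6 livers at 40 h for 11 of 12 checkpoint genes, 13 of 18 substrates, 7 of 14 core subunits, 5 of 14 cohesin genes and 3 of 11 other enzymes, against 24.7% of all genes. It was also the highest of the 6 for 5 of 14 cohesin genes and 3 of 11 other enzymes, against 21% of all genes, and for none of the other 3 lists.

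**Figure D5:**
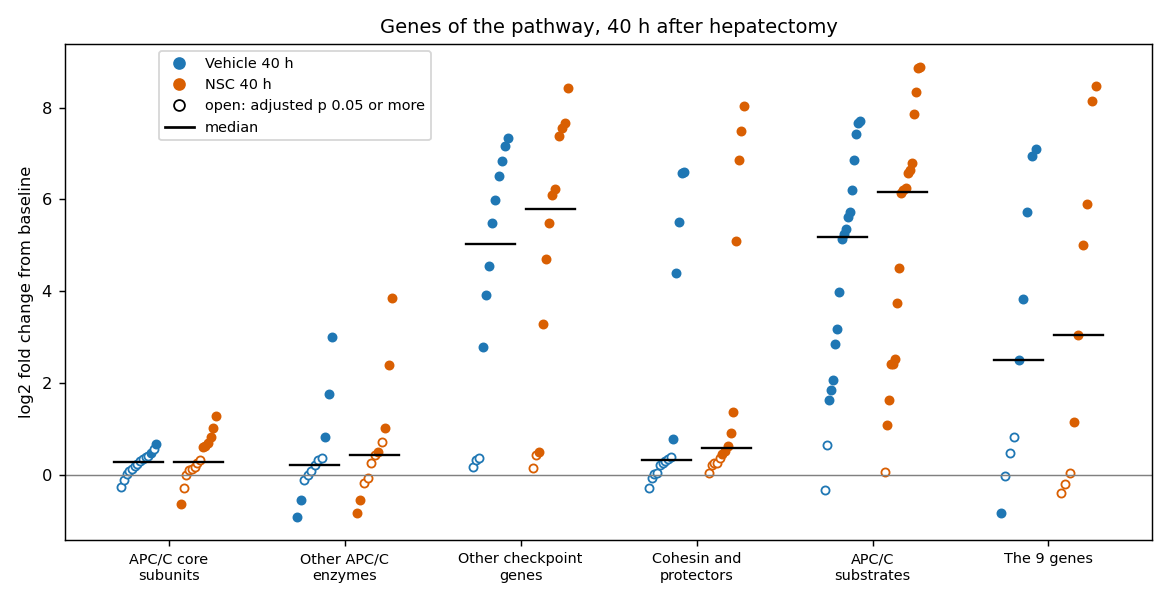
Log2 fold change from baseline at 40 h of each gene in the 5 lists and of the 9 genes, in vehicle-treated (blue) and NSC-treated (orange) mice, with filled symbols for an adjusted p under 0.05 and a line at the median. Core subunits lie between -0.64 and 1.28, while most checkpoint genes and substrates lie well above them.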

How the data were processed

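RNA-Seq of whole liver was analysed in 9 libraries (TruSeq Stranded mRNA). According to the methods, the authors processed reads with MAP-RSeq, aligning with STAR 2.6.1 and counting with Subread 1.5.1 (versions from the submitters' processing notes). The labels name hg38, but the table holds mouse Ensembl genes, of which 78.8% have the positions of GENCODE M21 (GRCm38). The authors deposited raw gene counts and FPKM, and FPKM was used only for levels and ratios. Mitochondrial genes were at 0 in every library.

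Counts were tested with edgeR 4.0.16 (robust quasi-likelihood, TMM scaling, filterByExpr) with all 9 libraries in 1 fit and p-values adjusted over 15024 genes. SE was taken as the log2 fold change divided by the root of F. Ratios were compared with exact permutation tests. The code was tested on simulated data. The labels do not state that libraries are separate animals, although the paper calls the samples of a group biological replicates. The edgeR p-values set differences between groups against the spread between these samples, and replicates differed by more than sampling noise.

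The 9 genes and the lists were chosen with earlier results of these data known. Named genes are the 9, plus, in each list, the 2 with the largest and the 2 with the smallest log2 fold change in vehicle-treated mice. The 3 genes nearest in profile were found for each of the 9, and the nearest alone is named for those with flatter profiles; *Anapc2* in NSC-treated mice was added after its value was seen. Same-numbered livers did not deviate together (correlations -0.05 to 0.13), so numbers were not used as pairs. Whether baseline tissue and vehicle remnants came from the same mice is not stated. The correlations cover only pairing by number, so shared mice under other numbers remain possible and these groups may not be independent. Alternatives were DESeq2 1.42.0, other scalings and count filters, fits to only the groups compared, GC correction, a replicate block and leaving out each library. Leaving out NSC replicate 1 for the lists was chosen after seeing the data. Promoter windows came from RefSeq, and protein sequences were not used here.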

Additional observations from a re-analysis of the deposited data

How the results depend on the processing

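Of the 9 genes' log2 fold changes under the alternatives, 445 values kept their direction and side of the threshold, 12 gained the call, 7 lost it and 13 changed sign. Calls of *Cdc20*, *Ube2c*, *Espl1*, *Mad2l1* and *Fbxo5* from baseline held wherever tested (adjusted p at most 0.0449). For *Cdc20*, *Ube2c* and *Espl1*, which passed the main filter through the livers at 40 h and had to differ, this is a description. With 10 or more counts required in every library, *Cdc20*, *Ube2c* and *Espl1* were not tested, and 3 of 6 genes were called in each comparison with baseline. DESeq2 called 1 of the 9 in the direct comparison. Leaving out 1 library gave 5 to 7 of the 9 in vehicle-treated mice, 5 to 6 in NSC-treated mice and 0 to 5 directly, where the 5 came without NSC replicate 1. Over all genes it gave 2285 to 4538, 3604 to 5234 and 0 to 994 calls (without baseline replicate 1, baseline replicate 3 or vehicle replicate 1, 2329, 2285 and 2367 in vehicle-treated mice). A log2 fold change over 1.5 left 1085, 1222 and 3 genes. The direct comparison called 725 genes in DESeq2, 1 with library size only, 221 with every gene of 1 count or more, 11 with the replicate block and 0 with GC correction. The block changed no call of the 9. *Fzr1* was at 0.012 with the replicate block and 0.13 with GC correction in vehicle-treated mice, and at 0.33 and 0.20 with GC correction in NSC-treated mice and directly. Leaving out 1 library, *Fzr1* ran from -0.14 to 0.13, -0.44 to 0.15 and -0.42 to 0.17, *Mad1l1* in NSC-treated mice from -0.042 to 0.14, *Espl1* directly from -0.15 to 0.58, and the log2 ratio of *Mad2l1* to *Cdc20* directly from -0.21 to 1.06. Library size alone moved the median of all genes to 0.15 and 0.14 in the comparisons with NSC. The cause of these shifts was not tested. Counts of 4 to 19 at baseline limit the precision of the folds of *Cdc20*, *Ube2c* and *Espl1*.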
